A study of Homo sapiens with 8 samples.

Results

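The genes described here are 31 hepatocyte genes for plasma proteins, taken from a list of names. They comprise 7 carriers of hormones, vitamins, and fatty acids, 3 genes of the fetuins and A1BG, 5 chains of the inter-alpha-inhibitors, and 16 acute-phase proteins. All 31 names matched a row among the 60230 genes of the deposited table. The RNA came from CYP3A4-overexpressing HepG2 cells, a human hepatoma line that carries extra cytochrome P450 3A4 and was kept in blasticidin. There were 4 groups of 2 samples, and all 8 samples came from this line. Control cells received 0.2% DMSO, and the other groups received compound 4, 5, or 6, each at its own IC50 concentration, for 24 h. These compounds are phenolic antioxidants used in plastics. Compound 4 carries tert-butyl groups on methyl-substituted rings joined by a methylene bridge, compound 6 has cyclohexyl in place of tert-butyl, and compound 5 has an ethane bridge and only tert-butyl groups as ring alkyl substituents. Their concentrations were not matched, so differences between compounds are differences at those concentrations. No source states that the replicates, numbered by day, were separate cultures, so the p-values measure the spread between these samples, which may be technical. HepG2 is a tumor line that still secretes many hepatocyte proteins and also AFP, and it lacks the immune cells that supply cytokines in liver.

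Hepatocytes make most plasma proteins. Carriers such as albumin and transthyretin are synthesized constantly, and many fall during inflammation, whereas acute-phase proteins rise when interleukin-6 and interleukin-1 act on the hepatocyte through STAT3, NF-kB, and C/EBP factors. Factors such as HNF1 and HNF4 keep carrier genes active in liver. AFP is the main plasma carrier of the fetal liver, is silent in adult hepatocytes, and returns in hepatoma cells.

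The 8 libraries held 9472261 to 13308975 estimated counts, and values are given as CPM, which are counts scaled to a common library size with TMM factors. The 31 genes took 2.46 to 3.67% of all counts. Of 13404 genes that passed the filter on low counts, 21 were members. All 9 hepatocyte markers were measured, and with each compound 3 had a positive and 6 a negative log2 fold change. Of the markers called, CYP3A4, the overexpressed gene, was higher with compound 5 and the others were lower. The sum of the 9, which includes the members ALB, AFP, and SERPINA1, was 39990 to 41795 CPM in DMSO, 31475 to 31514 under compound 4, 33466 to 33677 under compound 5, and 31972 to 38332 under compound 6, lower in each treated sample. By contrast, PTPRC, CD3E, and DCN were at 0 counts in each library and COL1A1 and KRT7 at 0 or 1. Some markers of other cell types moved with treatment. The summed cholangiocyte list was 219 to 242 CPM in DMSO, 254.8 to 277.9 under compound 4, 267 to 285 under compound 5, and 273 to 302 under compound 6, and KRT19 was called higher with each compound while SOX9 was not called. The summed leukocyte list was almost all CD68 and was 27.2 to 38.5, 56.3 to 57.6, 35.6 to 39.1, and 47.3 to 50.6 CPM in the same order. The fibroblast list was 1.64 to 2.66, 6.32 to 8.64, 2.67 to 4.58, and 3.86 to 5.43 CPM, nearly all from PDGFRB. The 3 endothelial markers together stayed at 0.864 to 2.06 CPM. CD68 and PDGFRB were called higher with compound 4 only among the DMSO comparisons. Their part in the results was not tested.

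Per kilobase of transcript, the DMSO level of ALB, 7703 CPM per kb, stood at the top, followed by AHSG at 1887, AFP at 1359, SERPINA1 at 1101, and AMBP at 675. The genes AGT, ITIH2, ORM1, ORM2, SERPINA3, and RBP4 lay between 526 and 210 CPM per kb. The lowest measured member was A1BG at 4.38, below LRG1 and HP at 20.3 and 21.5 CPM per kb. Single-sample levels spanned more than 3 orders of magnitude, as the plot of levels in each library shows.

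**Figure D1:**
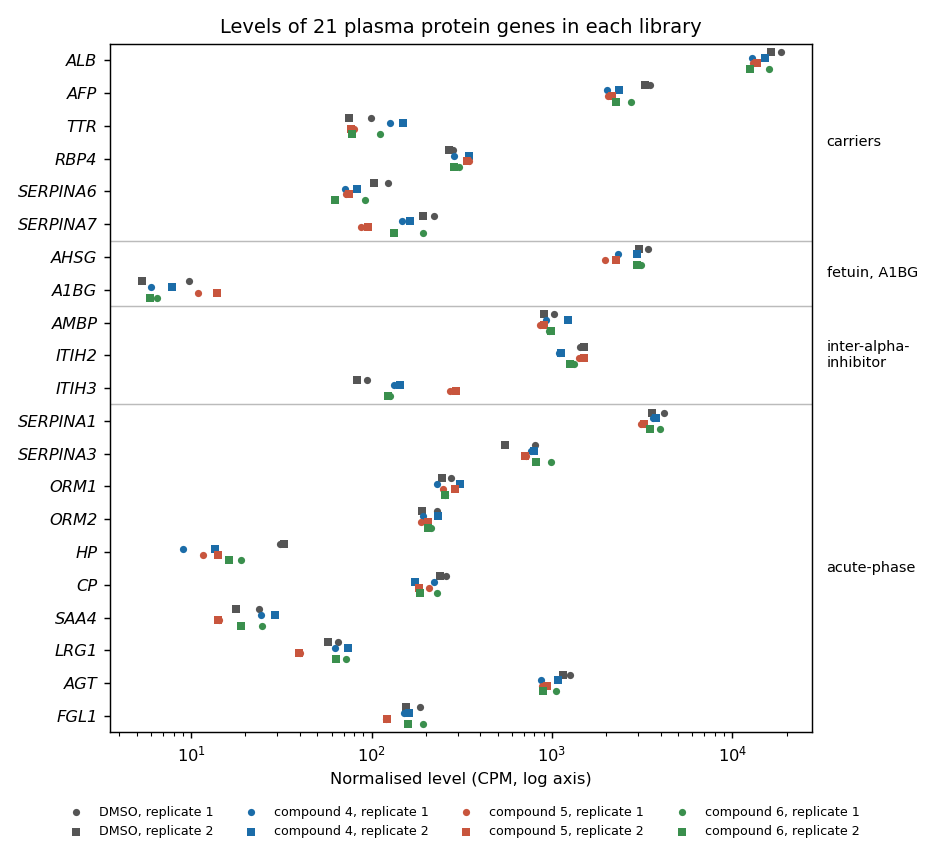
Level of each of the 21 measured genes in every library, in CPM on a log axis. Color marks the treatment, circles mark replicate 1, and squares mark replicate 2. ALB lay between 12561 and 18489 CPM, and A1BG between 5.34 and 13.9 CPM.

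The other 10 members did not pass the filter and were not tested. CRP, SAA1, and APCS, which encode the classical acute-phase reactants C-reactive protein and serum amyloid A and the related pentraxin, had 0 counts in all 8 libraries. A count of 0 allows up to 0.234 to 0.313 CPM, the lowest and highest value of 3 counts among the 8 libraries after scaling, and this limit covers counting error only. SAA2 had 1 count over all libraries, GC (vitamin D-binding protein) and LBP (lipopolysaccharide-binding protein) had 4 each, ITIH4 had 13, ITIH1 had 23, HPX (hemopexin) had 35, and FETUB had 46. No change could be read from these genes at this depth.

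Of the 6 measured carriers, edgeR called AFP, SERPINA6, and SERPINA7 lower with compound 5, and AFP lower and TTR higher with compound 4. With compound 6 edgeR called 0 carriers, and 2 had an unadjusted p under 0.05. The share of all genes called was 11.9%, 28.1%, and 4.40% for compounds 4, 5, and 6, so a count of 0 in 6 carriers lies near the background. DESeq2 called these carriers too, and in addition SERPINA6 with compound 4, ALB and RBP4 with compound 5, and AFP and SERPINA6 with compound 6. RefSeq promoter sequences were at hand for 21 of the 31 members. The 250 bases before the RefSeq start of ALB, AFP, and SERPINA7 are shown because these carriers hold the HNF1 core GTTAAT there, and those of ITIH3 because that gene had the largest rise of the 21 measured members and has no such match. Capitals mark GTTAAT on the strand of the gene, build GRCh38.p14. The gene spans given elsewhere are those of GENCODE, which for ALB and AFP begin upstream of the RefSeq start, so both stretches lie within the GENCODE span.
ALB, chr4:73404037-73404286, plus strand: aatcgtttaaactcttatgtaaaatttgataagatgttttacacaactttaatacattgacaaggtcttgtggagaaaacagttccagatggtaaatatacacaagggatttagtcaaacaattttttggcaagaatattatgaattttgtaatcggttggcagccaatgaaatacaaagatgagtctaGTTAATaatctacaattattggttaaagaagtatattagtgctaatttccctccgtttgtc
AFP, chr4:73435971-73436220, plus strand: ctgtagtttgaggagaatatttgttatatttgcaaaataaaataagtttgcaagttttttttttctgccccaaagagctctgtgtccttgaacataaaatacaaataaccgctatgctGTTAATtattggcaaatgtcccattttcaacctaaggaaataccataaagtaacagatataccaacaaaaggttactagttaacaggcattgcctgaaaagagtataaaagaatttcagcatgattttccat
SERPINA7, chrX:106038728-106038977, minus strand: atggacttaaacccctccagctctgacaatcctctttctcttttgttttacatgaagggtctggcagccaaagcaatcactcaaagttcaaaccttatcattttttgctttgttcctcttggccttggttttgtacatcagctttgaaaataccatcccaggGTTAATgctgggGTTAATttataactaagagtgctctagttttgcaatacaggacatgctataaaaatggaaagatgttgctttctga
ITIH3, chr3:52794546-52794795, plus strand: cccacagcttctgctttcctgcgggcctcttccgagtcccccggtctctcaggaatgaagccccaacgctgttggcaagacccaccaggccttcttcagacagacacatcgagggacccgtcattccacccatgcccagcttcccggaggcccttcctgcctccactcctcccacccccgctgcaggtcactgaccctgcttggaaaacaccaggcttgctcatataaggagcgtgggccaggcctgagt

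The core GTTAAT was searched on both strands and was present in 6 of the 21 members with a sequence, namely ALB, AFP, SERPINA6, SERPINA7, SERPINA1, and SAA4. It was present in 6.23% of 35116 promoters of this length, and in at least 1 promoter of 7.5% of 27305 genes. SERPINA7 held 2 matches, beginning 88 and 76 bases before the start. The C/EBP pattern TTGCNNAA was found in 8 of the 21 members, in 9.05% of promoters, and in at least 1 promoter of 11% of genes. For the STAT3 pattern TTCNNNGAA these were 6 of the 21, 6.57%, and 8.09%. The HNF4 pattern CAAAGTCCA gave 1 of the 21, 0.325%, and 0.403%, and the TATA box TATAAA gave 8 of the 21, 10.7%, and 13%. A match describes the letters only.

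ALB, the most abundant plasma protein and a carrier of fatty acids and drugs, is located on chromosome 4 at 73397114 to 73421412 (GRCh38), next to AFP at 73431138 to 73456174. ALB was at 18489 and 16375 CPM in DMSO, 12915 and 15080 under compound 4, 13045 and 13614 under compound 5, and 16017 and 12561 under compound 6. Every treated sample lay below both DMSO samples. The log2 fold changes were -0.32, -0.39, and -0.29, with edgeR adjusted p of 0.163, 0.0557, and 0.274, so no comparison passed the threshold of 0.05. The compound 5 interval for ALB ran from -0.69 to -0.09, and this difference passed with DESeq2 (0.0302), upper-quartile scaling (0.0304), library-size scaling (0.0183), no filter (9.01e-04), or a fit to the 4 samples compared (0.0349), and without compound 4 replicate 1 (0.0327), compound 4 replicate 2 (0.0383), compound 6 replicate 1 (0.0469), or compound 6 replicate 2 (0.0478). Without a filter ALB also passed with compounds 4 (0.0081) and 6 (0.0323). It was farther from the threshold with compound 5 without DMSO replicate 1 (0.285) or compound 5 replicate 1 (0.227). The ALB value with compound 6 was -0.12 without compound 6 replicate 2, -0.18 without DMSO replicate 1, and -0.44 without compound 6 replicate 1, and that with compound 4 was -0.21 without compound 4 replicate 1.

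AFP (alpha-fetoprotein) was at 3486 and 3267 CPM in DMSO, 2016 and 2345 under compound 4, 2049 and 2163 under compound 5, and 2727 and 2254 under compound 6. The DMSO samples were the highest, and no treated group overlapped them. AFP fell by 0.63 ± 0.12 (SE) on the log2 scale with compound 4 and by 0.68 ± 0.12 with compound 5, with edgeR adjusted p of 0.00861 and 0.00278. With compound 6 the value was -0.44, and the adjusted p of 0.0685 did not pass. Of the 11 other settings that kept all samples of the groups compared, 5 called it lower, DESeq2 (0.00837) included. In bulk RNA, fewer cells that express a gene and less RNA of it per cell cannot be told apart. The compound 4 call for AFP was lost without DMSO replicate 1 (adjusted p = 0.0594) or DMSO replicate 2 (adjusted p = 0.0542), whereas the compound 5 call held in all 8 fits that each left out 1 library.

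SERPINA7, the thyroxine-binding globulin, lies on the X chromosome at 106032442 to 106038738. Its level was 221 and 192 CPM in DMSO, 148 and 164 under compound 4, 87.3 and 96.0 under compound 5, and 193 and 133 under compound 6. The compound 5 samples were below all other samples, and the compound 6 samples overlapped DMSO. SERPINA7 was 2.25-fold lower with compound 5, a log2 fold change of -1.17 ± 0.16 (SE) with an edgeR adjusted p of 7.13e-04. The values for compounds 4 and 6 were -0.40 and -0.34 and were not called. The compound 5 call for SERPINA7 held in all 8 fits that left out a library.

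SERPINA6, the corticosteroid-binding globulin, was at 123 and 104 CPM in DMSO, 71.5 and 83.5 under compound 4, 72.0 and 74.7 under compound 5, and 92.2 and 63.1 under compound 6. All treated samples lay below DMSO, and by edgeR the compound 5 difference passed, with a log2 fold change of -0.63 ± 0.17 (SE) and an edgeR adjusted p of 0.0186. The values for compounds 4 and 6 were both -0.55, with edgeR adjusted p of 0.0572 and 0.0907 and DESeq2 adjusted p of 0.0193 and 0.0387, which passed. The SERPINA6 value with compound 6 was -0.30 without compound 6 replicate 2 and -0.82 without compound 6 replicate 1, where it was called (0.0155), and with compound 4 it was called without either compound 6 library (0.0205 and 0.0196). The compound 5 call for SERPINA6 was lost without DMSO replicate 1 (0.163), compound 5 replicate 1 (0.124), or compound 5 replicate 2 (0.0787).

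TTR (transthyretin), a carrier of thyroxine and of retinol-binding protein, is located on chromosome 18 at 31557010 to 31599021. It was at 99.3 and 74.6 CPM in DMSO, 126 and 149 under compound 4, 79.7 and 76.8 under compound 5, and 112 and 78.1 under compound 6. The compound 4 samples were the highest, and the other groups overlapped. TTR rose 1.58-fold with compound 4 (log2 0.66 ± 0.18 SE, edgeR adjusted p = 0.0365) and was not called with compound 5 or 6. The TTR call was lost without DMSO replicate 2 (0.296), compound 4 replicate 2 (0.102), or either compound 5 library (0.0601 and 0.0594). RBP4, the retinol-binding protein that travels with TTR, ranged from 270 to 345 CPM and had log2 values of 0.19, 0.31, and 0.09 for compounds 4, 5, and 6. The compound 4 value of RBP4 was 0.06 without compound 4 replicate 2 and 0.32 without compound 4 replicate 1. RBP4 was not called with compound 5 (edgeR adjusted p = 0.0599), but 7 of the 11 other settings called it higher, DESeq2 (0.022) included. Over all 11, log2 values ran from 0.20 to 0.50 and adjusted p from 9.21e-04 to 0.174. Length correction also called RBP4 higher with compound 5 than with compound 4 (0.0137) or compound 6 (0.0153).

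Of the fetuins, only AHSG was abundant. AHSG (fetuin-A), a plasma protein that keeps calcium phosphate from precipitating, was at 3427 and 3030 CPM in DMSO, 2323 and 2946 under compound 4, 1968 and 2275 under compound 5, and 3102 and 2955 under compound 6. The compound 5 samples were the lowest, and the compound 6 samples overlapped DMSO. The AHSG values for compounds 4 and 6 were -0.29 and -0.09 and were not called. Length correction called AHSG lower with compound 4, without (0.0343) and with (0.0321) the replicate block. With compound 5, AHSG fell by 0.61 ± 0.13 (SE) on the log2 scale (edgeR adjusted p = 0.00756). This AHSG call was lost without DMSO replicate 1 (0.0763) or compound 5 replicate 1 (0.0861). A1BG, a plasma glycoprotein of the immunoglobulin superfamily, was at 5.34 to 13.9 CPM and was not called against DMSO.

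The inter-alpha-inhibitors consist of the light chain bikunin, encoded by AMBP, and heavy chains encoded by the ITIH genes, and they stabilize hyaluronan in the matrix. ITIH3 was called higher with all 3 compounds, the only member with such calls, and ITIH2 was called lower with compound 4. ITIH3 lies on chromosome 3 at 52794768 to 52809009, and its promoter, printed above, held neither GTTAAT nor TTGCNNAA. Its level was 94.7 and 83.4 CPM in DMSO, 133 and 144 under compound 4, 271 and 292 under compound 5, and 127 and 123 under compound 6. All 6 treated samples were above both DMSO samples, and the compound 5 samples were above all others. ITIH3 was 1.55-fold higher with compound 4, 3.16-fold higher with compound 5, and 1.40-fold higher with compound 6. The log2 fold changes were 0.64, 1.66, and 0.49, each with an SE of 0.11, and the edgeR adjusted p were 0.00441, 2.76e-05, and 0.0321. The compound 5 call for ITIH3 held in all 8 fits that left out a library. The compound 4 call was lost without DMSO replicate 2 (0.081), and the compound 6 call was lost in 6 of the 8 fits, with an adjusted p of up to 0.264.

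ITIH2 was at 1424 and 1497 CPM in DMSO, 1096 and 1125 under compound 4, 1420 and 1510 under compound 5, and 1319 and 1256 under compound 6. The compound 4 samples were the lowest, and the compound 5 samples overlapped DMSO. ITIH2 fell by 0.40 ± 0.10 (SE) on the log2 scale with compound 4 (edgeR adjusted p = 0.023), and its compound 5 value was 0.00. The call for ITIH2 was lost without either DMSO library (0.0804 and 0.171) and without either compound 4 library (0.0553 and 0.05), and in a fit to the 4 samples compared. AMBP ranged from 859 to 1227 CPM and was not called, with log2 values of 0.15, -0.14, and 0.01.

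**Figure D2:**
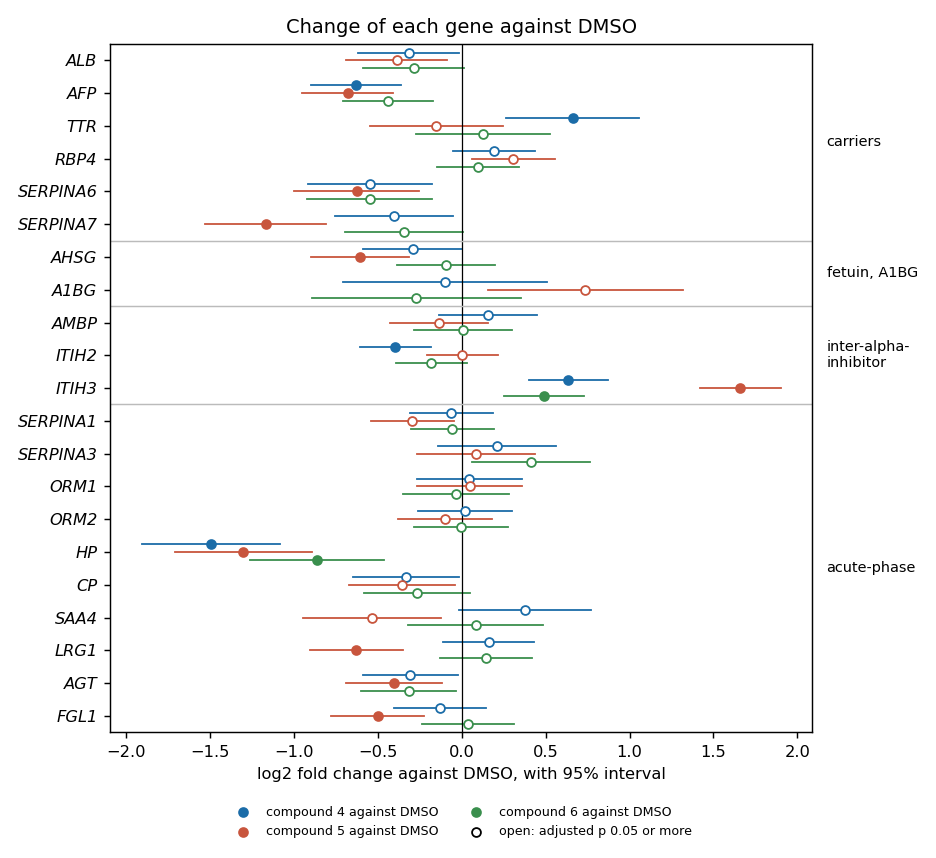
Log2 fold change of each gene against DMSO with its 95% interval, for compounds 4, 5, and 6, with genes grouped by role. Filled points passed the edgeR adjusted p of 0.05 and open points did not. ITIH3 with compound 5 lies farthest to the right at 1.66, and HP with compound 4 farthest to the left at -1.49.

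Of the 10 acute-phase genes measured, edgeR called 0 higher with compounds 4, 5, and 6, where 6.50%, 13.9%, and 2.80% of all genes were called higher, so a count of 0 in 10 lies near the background. DESeq2 also called 0 higher, and 1, SERPINA3 with compound 6, was higher at an unadjusted edgeR p under 0.05. Among the 10, HP fell with all 3 compounds, and LRG1, AGT, and FGL1 fell with compound 5. HP encodes haptoglobin, which binds free hemoglobin, and lies on chromosome 16 at 72054592 to 72061055, beside its near copy HPR at 72063148 to 72077246. HP was at 31.1 and 32.6 CPM in DMSO, 9.06 and 13.5 under compound 4, 11.6 and 14.1 under compound 5, and 19.0 and 16.1 under compound 6. No treated sample reached the DMSO level. HP was 2.82-fold lower with compound 4, 2.47-fold lower with compound 5, and 1.82-fold lower with compound 6. The log2 fold changes were -1.49, -1.30, and -0.86, with SE of 0.19, 0.19, and 0.18 and edgeR adjusted p of 0.00122, 8.05e-04, and 0.0278. The calls for HP with compounds 4 and 5 held in all 8 fits that left out a library, and the compound 6 call was lost without DMSO replicate 1 (0.132), DMSO replicate 2 (0.197), or compound 6 replicate 2 (0.32).

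Because 15.9% of the 31-base words of HP also occur in HPR, the counting could move reads between them. HPR was at 10.1 and 8.14 CPM in DMSO, 3.08 and 1.95 under compound 4, 0.733 and 0.942 under compound 5, and 5.01 and 2.64 under compound 6. The sum of HP and HPR had log2 fold changes of -1.57, -1.57, and -0.94, with edgeR adjusted p of 5.13e-04, 2.13e-04, and 0.0131. The fall of HP was also present when both genes were counted as 1 feature.

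LRG1, a secreted leucine-rich glycoprotein induced by inflammatory cytokines, is located on chromosome 19 at 4536409 to 4540474. LRG1 was at 65.4 and 57.6 CPM in DMSO, 62.8 and 74.3 under compound 4, 39.96 and 39.57 under compound 5, and 72.6 and 63.7 under compound 6. Only the compound 5 samples stood apart, below all others. LRG1 fell by 0.63 ± 0.13 (SE) on the log2 scale with compound 5 (edgeR adjusted p = 0.00492), and the values for compounds 4 and 6 were 0.16 and 0.15. The LRG1 call was lost without DMSO replicate 1 (0.063).

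FGL1, a fibrinogen-like protein secreted by hepatocytes, was at 186 and 156 CPM in DMSO, 152 and 161 under compound 4, 120 and 122 under compound 5, and 193 and 159 under compound 6. The compound 5 samples were the lowest, and the other groups overlapped. FGL1 fell by 0.50 ± 0.13 (SE) on the log2 scale with compound 5 (edgeR adjusted p = 0.0142). The FGL1 call was lost without DMSO replicate 1 (0.163), compound 5 replicate 1 (0.106), or compound 5 replicate 2 (0.0752).

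AGT (angiotensinogen), the precursor of the angiotensins, was at 1263 and 1146 CPM in DMSO, 872 and 1078 under compound 4, 879 and 943 under compound 5, and 1047 and 888 under compound 6. Every treated sample was below DMSO. AGT fell by 0.40 ± 0.13 (SE) on the log2 scale with compound 5 (edgeR adjusted p = 0.0392), which became 0.0539 with the replicate block, and its values with compounds 4 and 6 were -0.31 and -0.32. The AGT call was also lost without DMSO replicate 1, DMSO replicate 2, compound 5 replicate 1, or compound 5 replicate 2, with an adjusted p of up to 0.239.

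SERPINA1 (antitrypsin), the main inhibitor of neutrophil elastase, was at 4192 and 3582 CPM in DMSO, 3653 and 3791 under compound 4, 3114 and 3221 under compound 5, and 3975 and 3505 under compound 6. The compound 5 samples were the lowest, and the others overlapped. The log2 values for SERPINA1 were -0.06, -0.30, and -0.06, and none was called, with an adjusted p of 0.0727 for compound 5. Its compound 5 value ranged from -0.40 to -0.15 when a library was left out. SERPINA3 (antichymotrypsin) ranged from 550 to 982 CPM and had log2 values of 0.21, 0.08, and 0.41. Of its 31-base words, 30.4% also occur in the gene ENSG00000273259, which had 36 to 68 counts per library and was not called against DMSO. The orosomucoids ORM1 and ORM2, small acidic drug carriers, had values between -0.10 and 0.05, and 49.8% and 59.3% of their 31-base words occur in other genes, so their counts are uncertain. Length correction with the replicate block alone called ORM1 higher with compound 5, against DMSO (0.0456) and against compound 4 (0.0406). CP (ceruloplasmin), the copper-carrying ferroxidase, had values of -0.33, -0.35, and -0.27, and SAA4, the constitutive serum amyloid A, had 0.38, -0.53, and 0.08, with no call for either in the edgeR fit. CP was called lower with compound 5 in 7 of the 11 other settings, the replicate block (adjusted p = 0.0313 against 0.087 without it) included. Over all 11 its adjusted p ran from 0.00447 to 0.11. With compound 4, CP was called lower in 1 (0.0277, length correction with the block). SERPINA1 was called lower with compound 5 in 4 of the 11, and SERPINA3 higher with compound 6 in 2. Over all 11 settings, called or not, the adjusted p ran from 0.0189 to 0.0929 and from 0.00743 to 0.198.

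**Figure D3:**
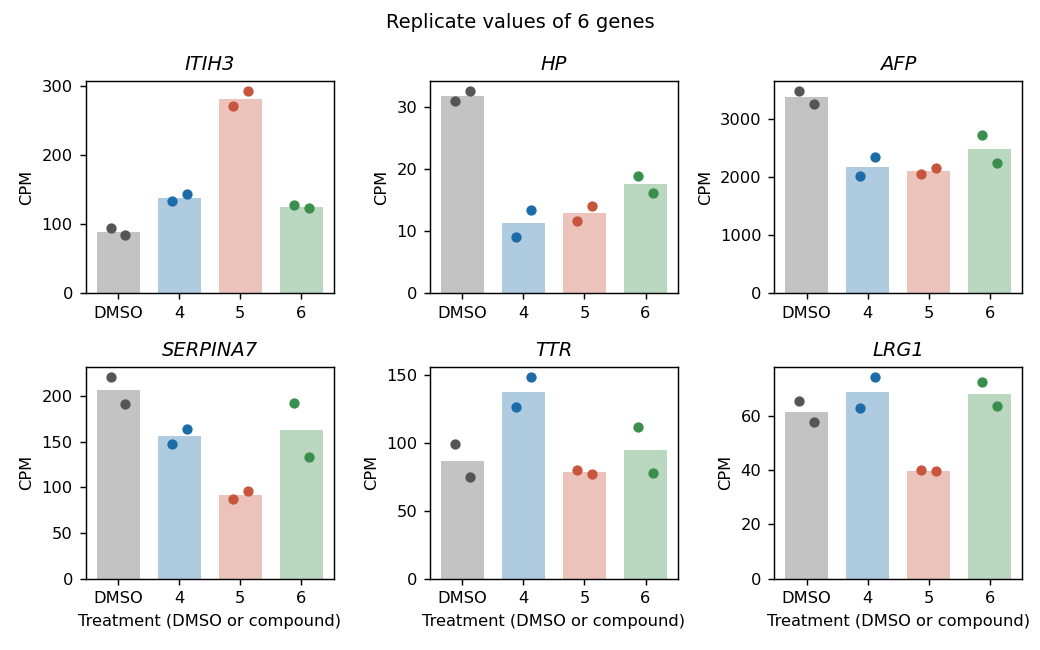
CPM of 6 genes in the 2 samples of each treatment. Points are samples, bars are the mean of the 2 samples, and each axis starts at 0. ITIH3 was at 83.4 and 94.7 CPM in DMSO and at 271 and 292 CPM with compound 5, and HP stayed below both DMSO samples in every treated group.

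Set side by side, the called acute-phase genes were all lower, and the called carriers were lower except TTR with compound 4. The counts are read against all 13404 genes tested. With compound 4, 5 of 21 members were called, 2 higher and 3 lower, where 11.9% of all genes were called, 6.50% higher and 5.42% lower. With compound 5, 9 of 21 were called, 1 higher and 8 lower, where 28.1% of all genes were called, 13.9% higher and 14.2% lower. With compound 6, 2 of 21 were called, 1 in each direction, where 4.40% of all genes were called, 2.80% higher and 1.60% lower. Across compounds, 10 members were called with none, 8 with 1, 1 (AFP) with 2, and 2 (ITIH3 and HP) with all 3, in comparisons that share the DMSO samples.

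By role, compound 5 lowered 3 of 6 measured carriers and 4 of 10 measured acute-phase genes, compound 4 lowered 1 of each and raised 1 carrier, and compound 6 lowered 1 acute-phase gene and no carrier. The median log2 fold change of the measured carriers was -0.36, -0.51, and -0.32 with compounds 4, 5, and 6, and that of the acute-phase genes was -0.02, -0.38, and -0.02. The median over all genes tested was 0.00, -0.03, and 0.00. The median over the 21 measured members was -0.10, -0.35, and -0.06. These medians cover only members that passed the filter and carry no test.

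Summed over all 7 carriers, the level was 22701 and 20282 CPM in DMSO, 15562 and 18166 under compound 4, 15679 and 16363 under compound 5, and 19445 and 15375 under compound 6, and most of it was ALB. The 16 acute-phase genes summed to 7330 and 6221 CPM in DMSO, 6186 and 6658 under compound 4, 5543 and 5746 under compound 5, and 7015 and 6108 under compound 6. The ratio of the acute-phase to the carrier sum was 0.323 and 0.307 in DMSO, 0.398 and 0.367 under compound 4, 0.354 and 0.351 under compound 5, and 0.361 and 0.397 under compound 6. Every treated sample had a higher ratio than both DMSO samples and a lower carrier sum. These sums and ratios carry no test.

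The number of called members depended on single libraries. In each fit listed here the number called over all genes moved in the same direction, so these counts are not particular to the members. With compound 4 it was 3 without DMSO replicate 1, 1 without DMSO replicate 2, and 3 without compound 4 replicate 2. With compound 5 it was 5 without DMSO replicate 1 or compound 5 replicate 1, 6 without compound 5 replicate 2, and 14 without either compound 4 library. With compound 6 it was 0 without DMSO replicate 1, DMSO replicate 2, or compound 6 replicate 2, 1 without either compound 5 library, 3 without either compound 4 library, and 4 without compound 6 replicate 1.

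The compounds were then compared with each other in the same fit, in 3 pairs. Compound 5 differed from compound 4 in 6 of 21 members, 2 higher and 4 lower, where 13.9% of all genes were called, 6.91% higher and 7.04% lower. It differed from compound 6 in 6 members, 2 higher and 4 lower, where 9.91% of all genes were called, 4.76% higher and 5.16% lower. Compound 6, which differs from compound 4 by cyclohexyl in place of tert-butyl, differed from it in 0 of 21 members by edgeR, where 0.0448% of all genes were called, 0.0224% in each direction. An unadjusted p under 0.05 was found for 3 members, and the fit without a filter called 2. DESeq2 also called 0.

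ITIH3 was 2.04-fold higher with compound 5 than with compound 4 (log2 1.03 ± 0.11 SE, edgeR adjusted p = 0.00211) and 2.25-fold higher than with compound 6 (1.17 ± 0.11, adjusted p = 4.26e-04). Its difference between compounds 6 and 4 was -0.15, with a 95% interval from -0.38 to 0.09. LRG1 was 1.73-fold lower with compound 5 than with compound 4 (adjusted p = 0.00676) and 1.71-fold lower than with compound 6 (0.00627), and the interval between compounds 6 and 4 ran from -0.28 to 0.26. SERPINA7 was 1.70-fold lower with compound 5 than with compound 4 (adjusted p = 0.0163) and 1.77-fold lower than with compound 6 (0.0131), and the interval between compounds 6 and 4 ran from -0.29 to 0.41. The SERPINA7 log2 difference of compound 5 from compound 6 ranged from -1.05 to -0.54 when a library was left out. Compound 5 thus stood below both others in SERPINA7 and LRG1 and above both in ITIH3, with no overlap of samples.

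TTR was 1.76-fold lower with compound 5 than with compound 4 (edgeR adjusted p = 0.0186). The TTR difference between compounds 6 and 4 was -0.53, with a 95% interval from -0.93 to -0.14 before adjustment and an adjusted p of 0.4. ITIH2 was 1.32-fold higher with compound 5 than with compound 4 (adjusted p = 0.0247), a call lost in a fit to those 4 samples. HP differed by 0.63 between compounds 6 and 4, with a 95% interval from 0.20 to 1.06 and an adjusted p of 0.372.

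AHSG was 1.43-fold lower (edgeR adjusted p = 0.0373) and FGL1 1.45-fold lower (0.0251) with compound 5 than with compound 6. SAA4 and A1BG passed between compounds but not against DMSO, and were picked out after their values were seen. Against DMSO with compound 5, each was called in 5 of the 11 other settings. Over all 11, DESeq2 included, the adjusted p ran from 0.0189 to 0.131 for SAA4 and from 0.00185 to 0.102 for A1BG. SAA4 was at 24.37 and 29.02 CPM with compound 4 and 14.3 and 14.1 with compound 5, a log2 difference of -0.91 ± 0.18 (SE) with an adjusted p of 0.0138, and 64.4% of its 31-base words also occur in other genes. A1BG was at 10.9 and 13.9 CPM with compound 5 and 6.46 and 5.93 with compound 6, a log2 difference of 1.01 ± 0.27 with an adjusted p of 0.0415, which became 0.0579 with the replicate block. It shares 49.2% of its 31-base words with other genes, 39.2% with the gene ENSG00000268230. That gene was itself called higher with compound 5, by 1.21 against DMSO (edgeR adjusted p = 0.00126) and by 1.31 against compound 6 (0.00422), so reads of A1BG and ENSG00000268230 may have been split between them and the A1BG value is uncertain.

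Single libraries also decided many of these calls between compounds. In each fit listed here fewer calls were also made over all genes, so the losses are not particular to the members. Compound 5 against compound 4 gave 2 members without compound 4 replicate 2 and 1 without either compound 5 library, and compound 5 against compound 6 gave 1 without compound 5 replicate 1, compound 5 replicate 2, or compound 6 replicate 1. ITIH3 kept both calls in all 8 fits that left out a library.

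**Figure D4:**
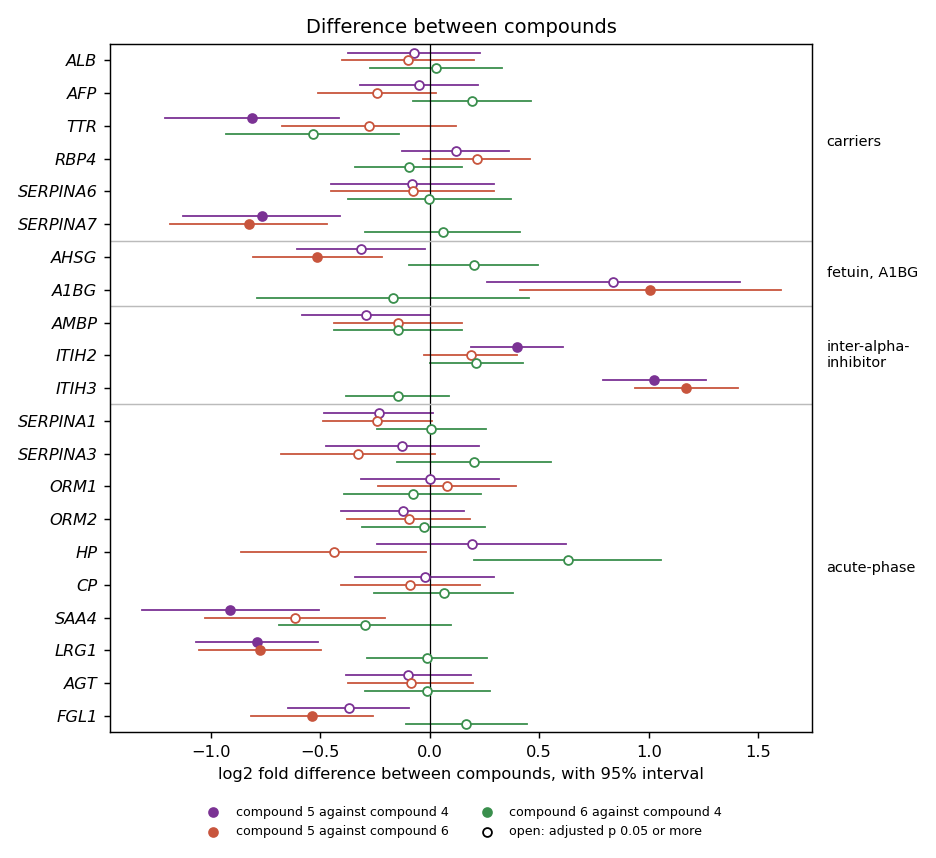
Log2 difference of each gene between compounds with its 95% interval. Filled points passed the edgeR adjusted p of 0.05 and open points did not. The comparison of compound 6 with compound 4 has no filled point, whereas ITIH3 lies at 1.03 and 1.17 in the comparisons of compound 5 with compounds 4 and 6.

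The cytokines that drive the acute phase had at most 3 counts in any library, whereas their receptors and feedback genes were measured. Of 26 listed signalling genes, 22 were tested, and IL6, IL1B, TNF, and OSM were not. Compound 4 raised 3 and lowered 0, compound 5 raised 5 and lowered 2, and compound 6 raised 2 and lowered 0, and the count at an unadjusted p under 0.05 was 7, 10, and 6. The called share of the 22 was 13.6%, 31.8%, and 9.09%, beside 11.9%, 28.1%, and 4.40% of all genes. IL6R, the interleukin-6 receptor chain, was at 69.9 and 66.4 CPM in DMSO, 131 and 128 under compound 4, 136 and 127 under compound 5, and 94.7 and 111 under compound 6, and rose by log2 0.93, 0.95, and 0.59. TNFRSF1A, a tumor necrosis factor receptor, rose by 0.65, 0.52, and 0.59. IL6R kept its calls with compounds 4 and 5 in all 8 fits that left out a library, and its compound 6 call was lost without DMSO replicate 1, DMSO replicate 2, or compound 6 replicate 2 (adjusted p up to 0.204). TNFRSF1A lost each call without DMSO replicate 1 or DMSO replicate 2, that with compound 5 without compound 5 replicate 2, and that with compound 6 without compound 6 replicate 2.

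SOCS3, the feedback inhibitor of STAT3 signalling, rose by log2 1.23 with compound 4 and 0.99 with compound 5, with 1.87 and 1.32 CPM in the DMSO samples, 3.68 and 3.74 under compound 4, and 2.75 and 3.53 under compound 5. Its compound 5 adjusted p of 0.0458 became 0.058 with the replicate block. DESeq2 did not call SOCS3 with either compound (0.123 and 0.156), and each call was lost without any 1 of the 4 libraries compared (adjusted p up to 0.25 and 0.229). CEBPB, a factor that activates acute-phase genes, rose by 1.31 with compound 5, with samples at 112 and 218 CPM against 72.4 and 61.4 in DMSO. The CEBPB value ranged from 0.75 to 1.74 when a library was left out, and the call was lost without DMSO replicate 2 or compound 5 replicate 2 (adjusted p up to 0.0626). JAK1 rose by 0.48 and IL1RAP fell by 0.51 with compound 5, and CEBPA fell by 0.45 with an edgeR adjusted p of 0.0489 that became 0.0505 with the replicate block. The calls of JAK1, IL1RAP, and CEBPA were each lost without any 1 of the DMSO or compound 5 libraries, CEBPA also without either compound 6 library, and DESeq2 did not call IL1RAP (0.0822). STAT3 itself lay between 147 and 181 CPM and was not called. Of 11 regulators of ALB and AFP transcription, edgeR and DESeq2 each called 0 with any compound, and by edgeR 3, 4, and 4 had an unadjusted p under 0.05. The share of all genes called was 11.9%, 28.1%, and 4.40%, so for compounds 4 and 6 a count of 0 in 11 lies near the background.

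Of 17 other secreted liver proteins, 15 were tested, and edgeR called 6, 7, and 3 with compounds 4, 5, and 6. That is 40%, 46.7%, and 20%, beside 11.9%, 28.1%, and 4.40% of all genes. The 7 include KNG1, described below, which passed the filter only through the compound 5 samples. HAMP, which encodes the iron hormone hepcidin and is also induced by interleukin-6, rose with all 3 compounds, 2.61-fold, 2.83-fold, and 2.90-fold, with 26.2 and 17.5 CPM in DMSO and 53.9 to 69.0 CPM in the treated samples. TF (transferrin), the iron carrier, fell by 0.56, 0.40, and 0.55, and APOA1, the main protein of high-density lipoprotein, fell by 0.66, 0.78, and 0.74. With the replicate block the compound 6 adjusted p became 0.0547 for TF and 0.0576 for APOA1, and with length correction the TF calls for compounds 4 and 6 were lost, with an adjusted p of up to 0.218 and 0.0978 once the block was added. APOH fell by 0.63 with compound 4 and by 0.62 with compound 5, and its compound 4 call was also lost in the fit to the 4 samples compared (0.0645). The fibrinogen chains FGA and FGG fell by 0.56 and 0.70 with compound 4, where the adjusted p of FGA became 0.0516 with the block. With compound 5 their values were 0.23 and 0.17 and were not called, with FGA at 649 and 810 CPM against 624 and 617 in DMSO and FGG at 928 and 1152 CPM against 941 and 909. Compound 5 was higher than compound 4 by 0.79 for FGA and 0.87 for FGG (adjusted p = 0.013 and 0.0128), and higher than compound 6 by 0.76 and 0.69 (0.0155 and 0.0314). FGB was also called higher with compound 5 than with compound 4 (0.0416) and compound 6 (0.0273). The FGB call against compound 4 was lost with upper-quartile or library-size scaling, in the fit to the 4 samples compared (adjusted p up to 0.0726), and in 5 of the 8 fits that left out a library (up to 0.239). Against compound 6, FGB and FGG were each lost in 6 of those 8 fits (up to 0.188 and 0.191), and FGA in 2 (up to 0.117). Against compound 4, FGA and FGG were lost without compound 5 replicate 2 (0.0964 and 0.0911). The compound 6 values of FGA and FGG against DMSO were both -0.52 (adjusted p = 0.0824 and 0.113), and neither was called between compounds 6 and 4 (adjusted p = 0.967 and 0.746). With compound 5, C4BPA fell by 0.66 and CFB rose by 0.34, and the adjusted p of CFB became 0.055 with the block and up to 0.127 with other scaling. HAMP kept its calls with compounds 4 and 5 in all 8 fits that left out a library and lost that with compound 6 without DMSO replicate 2 (0.093). Each call of TF, APOA1, APOH, FGA, FGG, C4BPA, and CFB against DMSO was lost without DMSO replicate 1 and in at least 1 more such fit. APOH with compound 4 was lost without DMSO replicate 1, DMSO replicate 2, compound 4 replicate 1, compound 6 replicate 1, or compound 6 replicate 2, and ranged from -0.94 to -0.36.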

How the data were processed

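RNA of 8 samples, 2 per group, was sequenced. The authors checked reads with FastQC 0.12.0, estimated transcript abundance with Salmon 1.5.0 on GENCODE 38, and summed it per gene through tximeta. The deposited values, expected counts made by the authors from these estimates, were rounded to whole numbers and not scaled, with 9472261 to 13308975 per library. The design had assumed plain counts. Gene coordinates and 31-base words came from GENCODE 29 on GRCh38, and promoters from RefSeq. Counts were fitted in R 4.3.3 with edgeR 4.0.16 (TMM, filterByExpr, quasi-likelihood test, 4 groups, all 8 samples). Benjamini-Hochberg adjustment ran over 13404 genes, and genes were called at an adjusted p under 0.05. The procedure was tested on simulated data. Alternatives were DESeq2 1.42.0, other scalings and filters, summed paralogs, a fit to the groups compared, the replicate block, and the omission of each library. A correction for transcript length was chosen after seeing the data.

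Values in every sample are given for members called against DMSO and for ALB, AFP, TTR, SERPINA1, HP, CRP, and SAA1. Members and lists were chosen with earlier results of these data known. Replicates carry day 1 or day 2 in the labels, and this number served as the block. Deviations of same-numbered samples correlated at -0.0826 to 0.16 across all genes and at -0.128 to 0.706 across the 21 measured members. Both highest values, 0.16 and 0.706, were those of compound 4 with compound 5. Replicates of a group differed by more than sampling noise. The role of the day, and the vehicle in treated wells, are not given in the sources used here.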

Additional observations from a re-analysis of the deposited data

How the results depend on the processing

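The number of members called against DMSO was 5, 9, and 2 for compounds 4, 5, and 6. Without a filter it was 8, 15, and 6. DESeq2 gave 4 for compound 6, and the fit to only the groups compared gave 14 for compound 5. Length correction gave 8 for compound 4 and 4 for compound 6. With the replicate block the counts were 5, 9, and 2, and with block and length correction together 8, 14, and 5. Over all genes tested, 1598, 3763, and 590 were called in the main fit and 2265, 4368, and 1441 without a filter. DESeq2 called 712 for compound 6, and the fit to only the groups compared called 5127 for compound 5. Length correction gave 2241 for compound 4 and 1153 for compound 6, and with the block added 2424, 4653, and 1225. Among the members the block alone changed the call of AGT with compound 5 (adjusted p = 0.0539) and of A1BG between compounds 5 and 6 (0.0579), and it gained CP with compound 5 (0.0313). It changed no other call of a member. Compound 6 against compound 4 gave 0 members and 2 without a filter, where 6 and 294 of all genes were called. In the fits that left out a library, the number called over all genes largely moved with that of the members. Leaving out 1 library gave 1 to 7 members for compound 4, 5 to 14 for compound 5, 0 to 4 for compound 6, 1 to 8 for compound 5 against 4, 0 for compound 6 against 4, and 1 to 7 for compound 5 against 6.

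Against DMSO, SERPINA1 changed sign only where a library was left out. It ranged from -0.17 to 0.060 for compound 4, positive without DMSO replicate 1, and from -0.16 to 0.080 for compound 6, positive without DMSO replicate 1 and, at 0.03, without compound 6 replicate 2. Over the 21 members, 6 comparisons, and 11 settings other than leaving out a library, 1303 of 1386 cases stayed on their side of the threshold, 78 gained a call, and 5 lost one. In the 8 fits that left out a library, 912 of 1008 cases stayed, 30 gained a call, and 66 lost one. Library-size and upper-quartile scaling moved the median of all genes for compound 5 against DMSO to -0.14 and -0.12. An arm left with 1 sample was assumed to vary like the other groups. With 2 samples a group, calls near the threshold, such as that of ALB with compound 5, turned with the setting, and 10 members were too low to test.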

Other observations

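KNG1, which encodes the kininogen that carries bradykinin, had 3 and 3 counts in DMSO, 5 and 4 under compound 4, 58 and 93 under compound 5, and 3 and 1 under compound 6. It passed the filter on low counts only through the compound 5 samples, so it had to differ, and its values are given as a description with no test.

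The ratio of ALB to AFP counts was 5.30 and 5.01 in DMSO, 6.41 and 6.43 under compound 4, 6.37 and 6.29 under compound 5, and 5.87 and 5.57 under compound 6. All 6 treated samples lay above both DMSO samples.

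The gap between replicates moved with transcript length. In compound 4 the median log2 difference of replicate 2 from replicate 1 was 0.18 in the quartile of genes with the shortest transcripts and -0.23 in the quartile with the longest, against -0.11 and 0.11 in DMSO. Across 13325 genes, the Spearman correlation of this gap with length was -0.47 for compound 4 and 0.33 for DMSO, as a description over genes, which are not replicates. Its part in the calls named here was not tested beyond the length correction.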
